A study of Homo sapiens with 13 samples.

Results

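CAV1, CAV2, CAVIN1, CAVIN2, CAVIN3 and MET were followed through 6 lists of ChIP-seq peaks from MDA-MB-231 cells, an established human cell line of triple-negative, basal B breast cancer. These 6 genes, of 19894 protein-coding genes in the annotation (GENCODE v44 on the hg19 build), were chosen by name and not by a measured value. Earlier results of these data were known when they were chosen. Chromatin was immunoprecipitated from untreated cells in standard culture with antibodies to H3K4me1, H3K27ac, H3K4me3, p300/CBP, RNA polymerase II (Pol II) and CTCF. There were 2 replicate libraries for each antibody except p300/CBP, which had 1, and 2 input libraries were not used here. Because the replicates of each antibody had been merged before peaks were called and the lists hold positions only, no value below has a replicate error, the depth behind each peak is unknown, and no difference was tested. All comparisons are descriptions of where peaks lie and how wide they are.

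Caveolae are small invaginations of the plasma membrane whose coat is built from caveolins, which insert into the membrane, and cavins, which bind the caveolin scaffold from the cytoplasm. They buffer membrane tension and take part in lipid handling and signalling, and they are abundant in mesenchymal, endothelial and fat cells. MET is the receptor tyrosine kinase for hepatocyte growth factor (HGF), which drives scattering and invasion of epithelial cells, and its gene is a neighbour of the caveolin genes on chromosome 7. H3K4me1 marks enhancers and the flanks of promoters, H3K27ac marks active elements, H3K4me3 marks promoters, p300 and CBP are acetyltransferases recruited by transcription factors, and CTCF is an architectural protein of chromatin.

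CAV2, CAV1 and MET lie in this order on chromosome 7, all transcribed from the plus strand. The transcription start site (TSS) of the canonical transcript is at 116139792 for CAV2, 116165090 for CAV1 and 116312250 for MET, so that the CAV2 and CAV1 starts are 25.3 kb apart and the CAV1 and MET starts 147 kb apart. The CAV1 gene (chr7:116165048-116201233) is 36.2 kb long and MET (chr7:116312250-116438431) 126 kb. The annotated CAV2 gene (chr7:115927434-116148595) spans 221 kb because it includes long transcripts that begin far upstream, whereas its canonical transcript spans 8.8 kb. The cavin genes are scattered and are all read from the minus strand: CAVIN1 at chr17:40554467-40575274 (20.8 kb), CAVIN2 at chr2:192699036-192711814 (12.8 kb) and CAVIN3 at chr11:6340176-6341762 (1.59 kb). A locus here is a gene with 100 kb on each side, and the chromosome 7 genes form 1 locus of 711 kb.

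The sequences under the p300/CBP peaks of these loci are shown first, since these narrow peaks are the most precise positions in the data. The letters TGANTCA were searched in each peak, and they read the same on both strands. This pattern admits TGAGTCA and TGACTCA, the consensus element of AP-1 (FOS and JUN) proteins. It also admits TGAATCA and TGATTCA, which differ from that consensus at the middle base. The first 3 sequences are peaks in introns of MET at chr7:116332851-116333001, chr7:116346751-116346851 and chr7:116417751-116418001. The next 2 are the pair upstream of the CAV1 promoter at chr7:116161251-116161351 and chr7:116162401-116162701. The following 2 lie in the long introns of the annotated CAV2 gene, far upstream of its canonical start, at chr7:115967951-115968201 and chr7:115980301-115980451. The last lies upstream of CAVIN2, in an intron of the antisense transcript CAVIN2-AS1, at chr2:192792151-192792301. All are the plus strand of hg19, and capitals mark TGANTCA.
MET intron 20.6 kb from the TSS: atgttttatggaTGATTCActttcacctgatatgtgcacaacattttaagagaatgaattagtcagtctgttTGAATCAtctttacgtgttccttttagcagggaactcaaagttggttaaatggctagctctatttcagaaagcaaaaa
MET intron 34.5 kb from the TSS: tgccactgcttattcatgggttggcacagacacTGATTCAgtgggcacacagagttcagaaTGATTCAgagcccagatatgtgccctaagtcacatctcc
MET intron 106 kb from the TSS: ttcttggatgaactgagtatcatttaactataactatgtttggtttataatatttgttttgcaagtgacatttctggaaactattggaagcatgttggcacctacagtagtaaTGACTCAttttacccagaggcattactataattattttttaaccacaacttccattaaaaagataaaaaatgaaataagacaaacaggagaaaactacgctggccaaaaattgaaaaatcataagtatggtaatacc
CAV1 3.84 kb upstream: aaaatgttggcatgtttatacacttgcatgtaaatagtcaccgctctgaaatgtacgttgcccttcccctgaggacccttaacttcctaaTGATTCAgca
CAV1 2.39 kb upstream: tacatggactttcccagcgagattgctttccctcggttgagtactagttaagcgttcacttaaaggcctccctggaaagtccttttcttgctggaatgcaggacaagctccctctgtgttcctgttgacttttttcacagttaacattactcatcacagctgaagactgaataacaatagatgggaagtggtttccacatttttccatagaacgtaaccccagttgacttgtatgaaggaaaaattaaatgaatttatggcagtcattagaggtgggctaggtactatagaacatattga
CAV2 172 kb upstream: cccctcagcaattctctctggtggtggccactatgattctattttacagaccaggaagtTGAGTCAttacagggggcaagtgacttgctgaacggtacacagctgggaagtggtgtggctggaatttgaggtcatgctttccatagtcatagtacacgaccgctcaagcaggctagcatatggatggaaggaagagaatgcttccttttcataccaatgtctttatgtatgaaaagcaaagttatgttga
CAV2 159 kb upstream: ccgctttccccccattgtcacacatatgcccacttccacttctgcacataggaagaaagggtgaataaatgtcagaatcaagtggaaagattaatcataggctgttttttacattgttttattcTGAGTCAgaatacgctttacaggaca
CAVIN2 80.3 kb upstream: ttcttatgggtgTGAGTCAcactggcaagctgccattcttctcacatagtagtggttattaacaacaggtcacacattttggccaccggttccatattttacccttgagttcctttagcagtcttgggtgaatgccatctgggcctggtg

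Of these 8 peaks, the one nearest to the CAV1 TSS held no TGANTCA, and both of the first 2 MET peaks held it 2 times. In these 2 MET peaks and in the farther CAV1 peak, every match was TGATTCA or TGAATCA, outside the AP-1 consensus. The counts that follow take every form of TGANTCA together. Over the 4 loci, 15 of 27 p300/CBP peaks held the letters (55.6%, 95% Wilson interval 37.3 to 72.4%, for counting error only), with 9 of 17 on chromosome 7, 3 of 5 at CAVIN1 and 3 of 5 at CAVIN2. Here and below, such intervals treat peaks or elements of the same locus as independent, which they are not, so none is a test. The deposited p300/CBP list holds more peaks than the study describes, and every p300/CBP count and share given here rests on that whole list. Among its 13984 peaks the share was 28.1%, and among peaks within distal H3K4me1 regions that carry H3K27ac it was 43.8%. The TEAD letters GGAATG (both strands) occurred in 3 of the 27 peaks, against 24.5% of all p300/CBP peaks. A match of letters is a description and does not show that the factor is bound.

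All 6 genes carried the marks of an active promoter. Within a window of 3 kb centred on the TSS, H3K27ac, H3K4me3, Pol II and H3K4me1 peaks were each found at 6 of 6 genes. These lists reached 61.4%, 62.7%, 58.4% and 59.3% of all protein-coding genes in the same window, respectively, so each of these marks alone is common. No member had a p300/CBP peak in the window, where 0.769% of all genes had one. CTCF was found in the window of 1 of 6 genes, MET, against 17.6% of all genes. The combination seen at the caveolins and cavins was shared by 7195 genes (36.2%), and that of MET by 2308 genes (11.6%).

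The marks had the same arrangement around each start. The TSS base itself lay inside an H3K27ac, an H3K4me3 and a Pol II peak at 6 of 6 genes, which was the case at 47.6%, 52.2% and 51.2% of all genes. It lay inside an H3K4me1 region at none of the 6, and at 8.37% of all genes. Instead, the H3K4me1 region in the window ended upstream of the start at all 6, at distances between 320 bp (CAVIN3) and 1150 bp (MET). With a window of 1 kb, an H3K4me1 region was therefore counted at 2 of the 6, CAVIN1 and CAVIN3.

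**Figure D1:**
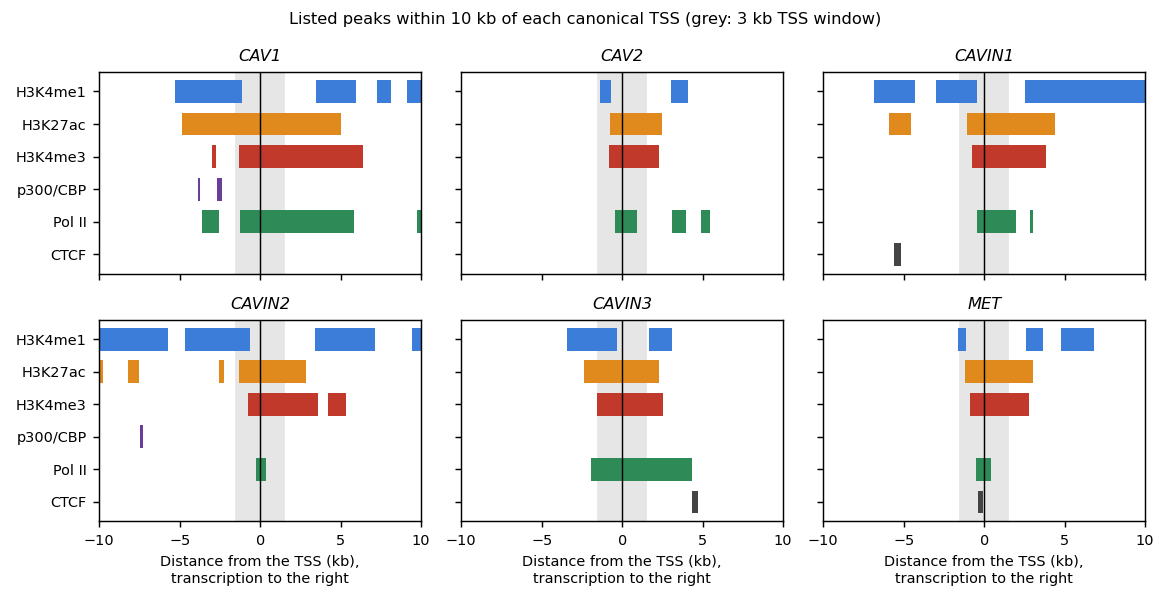
Listed peaks within 10 kb of the canonical TSS of each gene, as distance from the TSS in kb with transcription to the right; each bar is 1 peak and the grey band is the 3 kb window. H3K27ac, H3K4me3 and Pol II bars cross the TSS in all 6 panels, whereas no H3K4me1 bar crosses it: H3K4me1 lies on both sides, with a gap over the TSS.

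CAV1, which encodes the main structural protein of caveolae outside muscle, had the widest promoter domains of the 6. Its H3K27ac peak was 9850 bp wide, from 4.84 kb upstream to 5.01 kb downstream of the TSS, and was wider than that of 99.1% of the genes with such a peak. Its H3K4me3 peak was 7700 bp wide (wider than at 99.2% of such genes) and its Pol II peak 7100 bp wide (93.2%). All 3 domains extended several kb into the gene.

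CAV2, whose product forms hetero-oligomers with caveolin-1, had narrower domains. Its H3K27ac peak measured 3200 bp, its H3K4me3 peak 3050 bp and its Pol II peak 1350 bp. The medians over all genes with a peak were 2100, 2250 and 1100 bp, so each CAV2 domain was somewhat wider than the median and none reached the widths at CAV1.

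The 3 cavins had histone domains of similar width and differed in Pol II. CAVIN1 encodes the cavin required for caveola formation, and its H3K27ac, H3K4me3 and Pol II peaks were 5450, 4600 and 2400 bp wide. CAVIN2, which encodes a phosphatidylserine-binding cavin, had H3K27ac and H3K4me3 peaks of 4150 and 4350 bp, but its Pol II peak of 600 bp was wider than at only 19% of the genes with one. CAVIN3, which encodes a cavin that binds protein kinase C delta, had an H3K27ac peak of 4650 bp, an H3K4me3 peak of 4100 bp and a Pol II peak of 6250 bp. The Pol II peak at CAVIN3 was second in width to that at CAV1, and it ran from 1.92 kb upstream of the start to 4.33 kb downstream, past the end of this short gene.

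MET had histone domains of the same order as the cavins, with 4250 bp of H3K27ac and 3700 bp of H3K4me3. Its Pol II peak was 950 bp wide, below the median of 1100 bp. MET and CAVIN2 were the members with Pol II peaks narrower than the median and histone domains wider than it. The H3K4me1 region upstream was 500 bp wide at MET and 700 bp at CAV2, and between 2550 and 4150 bp at the other genes (median over genes 1600 bp). Peak width is not signal height, which the lists do not give.

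**Figure D2:**
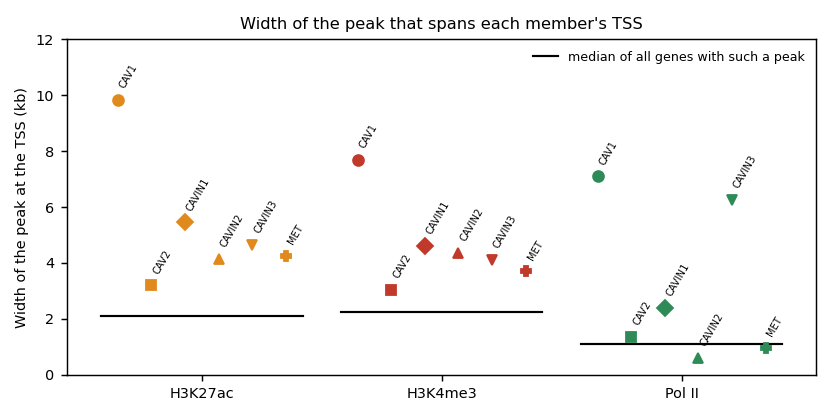
Width in kb of the H3K27ac, H3K4me3 and Pol II peak that spans each TSS, 1 symbol for each gene, with a line at the median over all genes that have such a peak. CAV1 is highest for all 3 lists, and CAVIN2 and MET lie under the line for Pol II.

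The MET promoter was the one with a CTCF peak. The peak, at chr7:116311851-116312151, was 300 bp wide and lay between 399 and 100 bp upstream of the TSS. The letters AGNNGGCNC, the core of the CTCF element, were absent from it on both strands, and it is printed for that reason together with the 150 bases upstream of the first annotated start of CAV1 and CAVIN2 (sense strand, hg19). For these, capitals mark GC boxes (GGGCGG, both strands), the kind of site bound by SP1. The stretches are chr7:116164898-116165047 for CAV1 (plus strand) and chr2:192711815-192711964 for CAVIN2 (minus strand).
MET promoter CTCF peak: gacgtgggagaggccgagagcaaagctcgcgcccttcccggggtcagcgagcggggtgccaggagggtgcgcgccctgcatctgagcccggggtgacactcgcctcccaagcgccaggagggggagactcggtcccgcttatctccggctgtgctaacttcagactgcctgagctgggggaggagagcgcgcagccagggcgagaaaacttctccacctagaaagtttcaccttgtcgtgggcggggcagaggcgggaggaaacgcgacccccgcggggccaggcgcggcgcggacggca
CAV1 upstream: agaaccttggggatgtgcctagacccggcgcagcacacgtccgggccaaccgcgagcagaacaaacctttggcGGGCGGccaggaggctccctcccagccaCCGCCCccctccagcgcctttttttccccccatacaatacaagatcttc
CAVIN2 upstream: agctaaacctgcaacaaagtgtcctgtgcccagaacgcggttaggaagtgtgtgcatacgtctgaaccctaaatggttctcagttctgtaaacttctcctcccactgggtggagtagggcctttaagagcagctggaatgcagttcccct

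These upstream stretches were compared for CAV1, CAV2, CAVIN1, CAVIN2 and MET. GC boxes, found at 49.2% of 19819 protein-coding genes, numbered 3 at CAV2, 2 at CAV1, 2 at CAVIN1 and 1 at MET, and CAVIN2 had none. The TATAAA letters (6.51% of genes) occurred at none of these 5, and CCAAT (26.3%) occurred at CAVIN1. CAVIN2 was also the poorest of them in CpG dinucleotides, with 24 in the 1000 bp around its start, against 58 at CAV1, 70 at CAVIN1, 98 at CAV2 and 103 at MET (median over genes 66).

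Pol II was distributed unequally over the gene bodies. Pol II peaks covered 65.2% of CAV1 in 9 peaks, 21.4% of CAVIN1 in 6 peaks, 2.85% of CAVIN2 in 1 peak and all of CAVIN3 in 1 peak. They covered 26.2% of the canonical body of CAV2 in 3 peaks, and 2.44% of its long annotated gene in 5 peaks. They covered 0.357% of MET, in the 1 peak at its start.

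A promoter peak fills a greater share of a short gene, so the members were placed among genes of 0.5 to 2 times their length. CAV1 had a greater share than 99% of 6833 such genes, and than 98.5% of the 4538 of them with Pol II at their TSS, where the median was 1.74%. CAVIN1 exceeded 82.5% and CAV2 67.6% of the genes of like length with Pol II at the TSS. CAVIN3, wholly covered, exceeded 62.1% of its 623 such genes, whose median was 57.3%. CAVIN2 exceeded 30.3% and MET 40.3% of theirs, with medians of 6.99% and 0.511%. Beyond 1 kb of the start, 64.2% of CAV1, 17.9% of CAV2, 17.5% of CAVIN1 and 100% of CAVIN3 was still in Pol II peaks, whereas the corresponding shares of CAVIN2 and MET were 0.

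**Figure D3:**
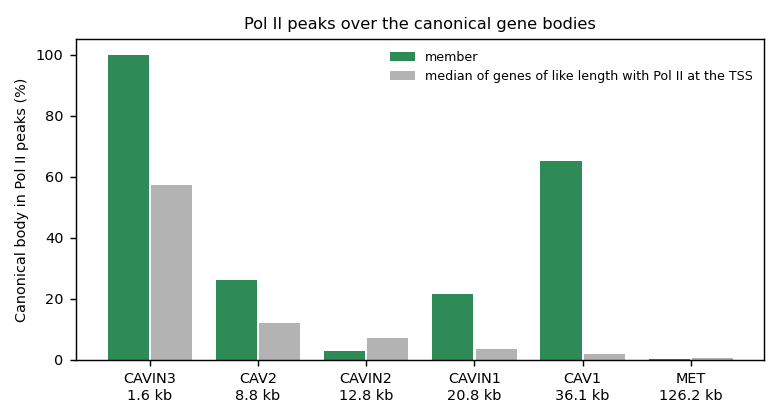
Share of each canonical gene body covered by Pol II peaks (green, percent), with the median over genes of 0.5 to 2 times the length that have Pol II at the TSS (grey); gene lengths are under the names. CAV1 stands at 65.2% beside a median of 1.74%, and MET at 0.357% beside 0.511%.

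H3K4me1 followed a different order. It covered 87.9% of CAVIN1, more than in 99.4% of genes, and 48.5% of CAVIN2, 46.3% of CAV1 and 29.9% of MET (median over genes 6.62%). CAVIN3 had no H3K4me1 inside its 1.59 kb, all of which lay in H3K4me3 and H3K27ac. In CAV1, 6 H3K4me1 regions without H3K27ac lay inside the gene. Pol II peaks overlapped all of them except the region from 7.26 to 8.11 kb downstream of the TSS.

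Candidate distal elements were read from H3K4me1. An H3K4me1 region that touched no TSS window of a protein-coding gene was called a candidate active enhancer (cAE) when it shared at least 1 bp with H3K27ac, and a candidate inactive enhancer (cIE) when it shared none. The chromosome 7 locus held 32 cAEs and 32 cIEs. This is 4.5 cAEs in each 100 kb, against 0.857 over the genome, and 4.5 cIEs against 1.74. CAVIN1 had 7 cAEs and 9 cIEs, CAVIN2 7 and 4, and CAVIN3 2 and 7. The density of cAEs in each 100 kb was 3.17 at CAVIN1, 3.29 at CAVIN2 and 0.992 at CAVIN3, so 3 of the 4 loci were well above the genome value and CAVIN3 was near it. Asking that H3K27ac fill 50% or more of a region, the counts were 17, 3, 2 and 0.

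Counted within 100 kb of each TSS, there were 13 cAEs around CAV2, 12 around CAV1, 9 around MET, 7 around CAVIN1, 7 around CAVIN2 and 1 around CAVIN3. The median over genes was 2, and the counts of CAV2 and CAV1 were higher than those of 99.9% and 99.7% of genes. The windows of CAV2 and CAV1 overlap and share most of these elements. The p300/CBP peaks in the same windows numbered 5 around CAVIN1 and CAVIN2, 4 around CAV1 and CAV2, 3 around MET and 0 around CAVIN3 (median 0).

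The place of the chromosome 7 elements depended on how far the locus was drawn. In the 312 kb upstream of the canonical CAV2 TSS there were 19 cAEs, 6 of them with p300/CBP, across TES (testin, a focal adhesion protein) and the long upstream part of CAV2. The canonical CAV2 body held none, the 16.5 kb between CAV2 and CAV1 held 2, CAV1 held 1, the 111 kb between CAV1 and MET held 4 and MET held 5. With loci drawn from canonical transcripts, which makes the chromosome 7 locus 499 kb long, 20 cAEs and 8 p300/CBP peaks were left of 32 and 17. Of these 20 cAEs, 7 lay upstream of the CAV2 TSS and 13 downstream of it, against 19 and 13 of the 32.

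**Figure D4:**
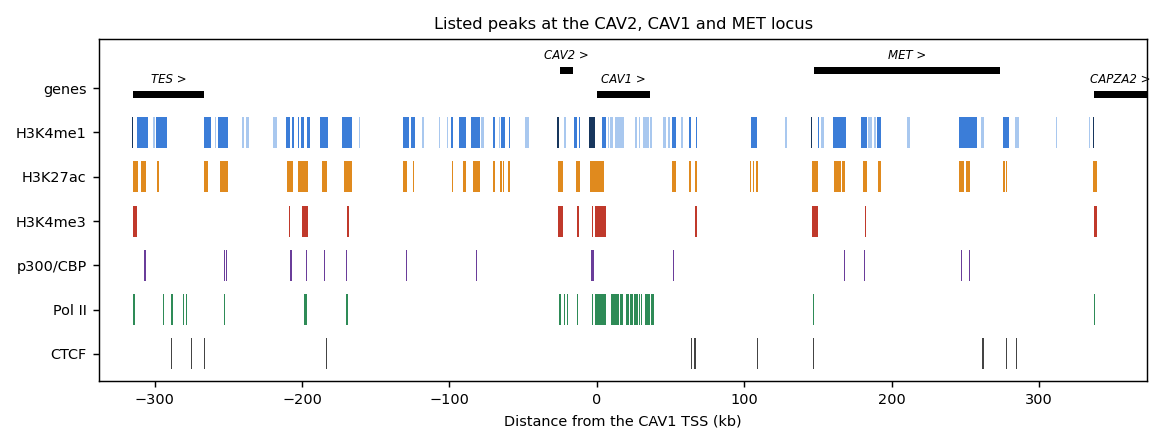
Listed peaks across the chromosome 7 locus as distance from the CAV1 TSS in kb, 1 row for each list, with canonical gene bodies at the top (arrows give the direction); H3K4me1 is blue for cAEs, light blue for cIEs and dark blue where it touches a TSS window, and very narrow peaks are widened to stay visible. Pol II fills CAV1 and is limited to the start of MET, and CTCF is missing between 183 kb upstream and 64 kb downstream of the CAV1 TSS.

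The element nearest to CAV1 was its own upstream flank. The H3K4me1 region of 4150 bp that reaches the CAV1 window held 2 p300/CBP peaks, 3.84 to 3.74 kb and 2.69 to 2.39 kb upstream of the TSS, the second of them also in a Pol II peak. A p300/CBP peak was nearer to the TSS at 1.13% of genes (median distance 198 kb). This region touches the TSS window and is not counted among the cAEs. The nearest cAE lay 3.46 kb downstream of the CAV1 start, in an intron, with H3K4me3 and Pol II. Its H3K27ac, H3K4me3 and Pol II were parts of the wide peaks that span the CAV1 TSS.

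MET had 5 cAEs in its gene body, and 3 of them carried p300/CBP. The widest spanned 12250 bp (chr7:116410801-116423051), from 98.6 to 111 kb downstream of the TSS, overlapped exon sequence of MET and held 2 p300/CBP peaks. Another spanned 9000 bp (chr7:116325201-116334201), from 13 to 21.9 kb downstream, and held 1. They were wider than 97.8% and 94.9% of all cAEs, whose median width was 2550 bp. The nearest cAE to the MET start, 1050 bp wide, began 2.6 kb downstream and held H3K4me3 but no p300/CBP. Its H3K27ac and H3K4me3 were parts of the peaks that span the MET TSS. No Pol II peak lay in any of the 5 elements.

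Between CAV1 and MET, in introns of the long non-coding RNA COMETT, 4 cAEs were found. The one at chr7:116216251-116218651, 51.2 to 53.6 kb downstream of the CAV1 TSS, held p300/CBP, and 93.8% of it lay in H3K27ac. Far upstream of CAV2, an H3K4me3 region of 3800 bp at chr7:115964951-115968751 touched no protein-coding TSS window. It carried H3K27ac, Pol II and p300/CBP, and the start of a long non-coding RNA (ENSG00000243243) lies inside it. Of the 7 H3K4me3 regions of the chromosome 7 locus away from protein-coding windows, this was the only one with an annotated transcript start inside.

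At CAVIN1, a single cAE of 18600 bp (chr17:40554151-40572751) covered most of the gene, from 2.52 kb downstream of the TSS to past its 3′ end. It was wider than 99.4% of all cAEs, 28.5% of it lay in H3K27ac, and it held H3K4me3, Pol II and CTCF but no p300/CBP. The 5 p300/CBP peaks of the locus lay 95.2 to 97.4 kb from the CAVIN1 TSS, within the neighbouring genes ATP6V0A1 (a proton pump subunit) and STAT3 (a transcription factor of cytokine signalling). With 50 kb on each side none of them was left.

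At CAVIN2, all 7 cAEs lay upstream of the gene, within the antisense long non-coding RNA CAVIN2-AS1. The widest, of 8400 bp (chr2:192725851-192734251), began 14 kb upstream of the TSS and was the one that lay wholly in H3K27ac, and it also held H3K4me3, p300/CBP and CTCF. The cAE nearest to the start, of 5400 bp, held the p300/CBP peak that was nearest to the gene, 7.29 kb upstream. No Pol II peak was found in any of the 7, and 4 of them held p300/CBP.

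CAVIN3 differed from the other 5 genes. Of its 2 cAEs, one began 1.68 kb downstream of the TSS, next to the promoter, and the other lay 100 kb away in FHIP1B. There was no p300/CBP peak in its locus, and the nearest was 699 kb from its TSS, farther than at 87.9% of genes.

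**Figure D5:**
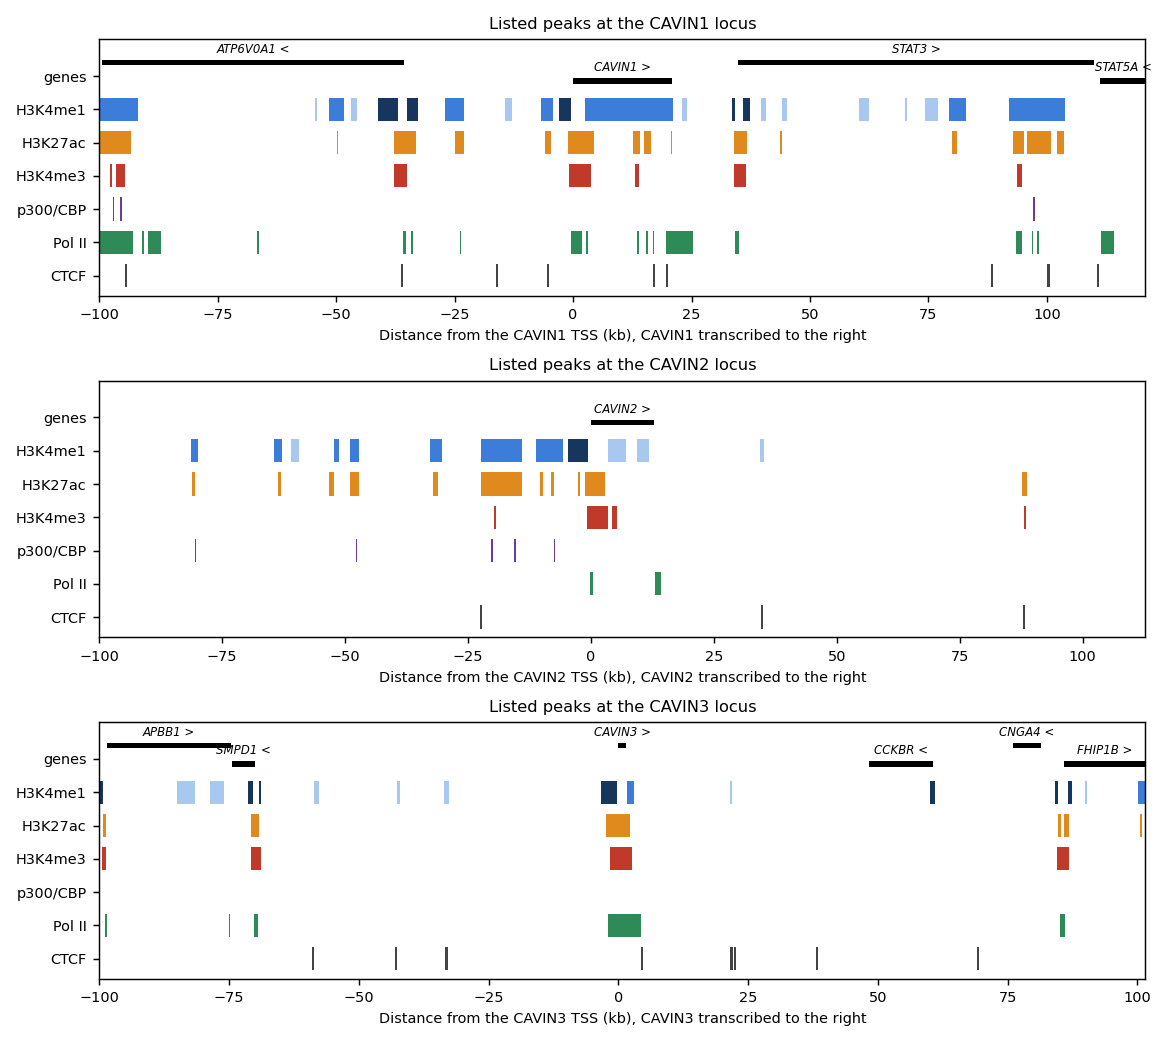
Listed peaks across the CAVIN1, CAVIN2 and CAVIN3 loci as distance from each TSS in kb, with the named gene transcribed to the right, rows and blue shades as for the chromosome 7 map, and very narrow peaks widened to stay visible. A wide H3K4me1 bar covers CAVIN1, the CAVIN2 cAEs lie on its upstream side, and the p300/CBP row of CAVIN3 is empty.

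Across the 4 loci, 16 of 48 cAEs held p300/CBP (33.3%, interval 21.7 to 47.5%), against 20.6% of all 24323 cAEs. The count was 10 of 32 on chromosome 7, 2 of 7 at CAVIN1, 4 of 7 at CAVIN2 and 0 of 2 at CAVIN3. H3K4me3 was present in 15 (31.2%, against 34.2% of all cAEs), Pol II in 10 (20.8%, against 21.0%) and CTCF in 8 (16.7%, against 16.4%). These 3 shares were near those of the whole genome. Of the 27 p300/CBP peaks, cAEs held 23, with 2 in the CAV1 flank and 2 outside H3K4me1 regions, while none lay in a cIE. H3K27ac overlapped 25 of them, with both exceptions at CAVIN2, Pol II overlapped 7 and CTCF none.

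H3K27ac covered 13.2% of the chromosome 7 locus, 16.7% at CAVIN1, 9.42% at CAVIN2 and 4.24% at CAVIN3, against 2.50% of the genome. The genome is a low bar for loci centred on genes: within 100 kb of a TSS the median over genes was 3.85%, and the members had 17.2% (CAVIN1), 15.7% (CAV2), 15.2% (CAV1), 11.1% (MET), 10% (CAVIN2) and 4.15% (CAVIN3). CAVIN3 was thus near the median gene, higher than 52.5% of genes. For p300/CBP the shares were 0.464%, 0.340%, 0.423% and 0, against 0.0960%. For Pol II they were 5.52%, 11.8%, 0.822% and 4.24%, against 1.51%. CAVIN2 thus had less Pol II coverage than the genome as a whole, while its H3K27ac was above it. Within 100 kb of a TSS, the median Pol II coverage over genes was 1.9%. CAV1 and CAV2 had 15.5% each, CAVIN1 11.7%, CAVIN3 4.28%, CAVIN2 0.875% and MET 0.475%. At CAVIN1, STAT3 and ATP6V0A1 contribute to these sums.

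CTCF peaks were unevenly spaced around the genes. CAV1 and CAV2 shared a stretch of 247 kb without a CTCF peak, from 183 kb upstream to 64 kb downstream of the CAV1 TSS, which was longer than that around 89.5% of genes (median 75.8 kb). The stretch around MET ran from the peak at its promoter to one 115 kb downstream. CAVIN1, CAVIN2 and CAVIN3 lay in stretches of 22, 57 and 37.2 kb. Of the 33 CTCF peaks in the 4 loci, 14 held the letters AGNNGGCNC (42.4%, interval 27.2 to 59.2%), against 33.9% of all 39596 CTCF peaks.

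The neighbours were marked as well. Of the 9 other protein-coding genes whose TSS lies in the loci, TES, CAPZA2, STAT3, ATP6V0A1, FHIP1B, SMPD1 and APBB1 had H3K27ac, H3K4me3 and Pol II at the start. CCKBR, a gastrin receptor gene, had H3K4me1 alone and CNGA4, a sensory channel subunit gene, had none of the 6. Farther downstream of MET, ST7 was marked like the first 7. A distal element can therefore lie near several active promoters, and these lists do not measure which gene it acts on. The study also captured chromatin contacts of selected promoters, TES among them, and those data were not used here.

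Other genes of caveolae were marked about as often as protein-coding genes in general. Of 15 listed, 10 had H3K27ac and Pol II at their TSS, where 61.4% and 58.4% of all genes had these marks. Among the 10 were EHD2, the ATPase at the caveola neck, PACSIN2, a membrane-bending protein, and FLNA, an actin crosslinker. The 5 without H3K27ac were CAV3 and CAVIN4, the muscle caveolin and cavin, CD36, a fatty acid transporter, NOS3, endothelial nitric oxide synthase, and PTGIS, prostacyclin synthase. INSR, the insulin receptor gene, was the only one of the 15 with p300/CBP in the window.

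In the MET pathway, 11 of 16 listed genes had H3K27ac at the start, including the adaptors GAB1, GRB2 and SHC1 and the ubiquitin ligase CBL. Those without it were HGF, the ligand, HGFAC and ST14, proteases that activate it, SPINT1, an inhibitor of these proteases, and LRIG1, a negative regulator of the receptor, which had H3K4me3. The receptor gene was thus marked in cells whose ligand gene carried none of the 6 peaks. These shares, 10 of 15 and 11 of 16, are near the 61.4% of all genes.

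The labelled cell type was read from markers in the same way. H3K27ac in this window is common, at 61.4% of all genes, so counts this small say little about cell type. All 6 mesenchymal or basal B markers (VIM, ZEB1, CD44, FN1, AXL, EGFR) had H3K27ac at the TSS. Of 8 luminal markers, FOXA1, KRT18 and KRT8 had it, and ESR1, PGR, GATA3, CDH1 and EPCAM did not. The leukocyte gene PTPRC had no peak of any list.

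The genes with the most similar pattern to CAV2, MET and the cavins were found from the base pairs covered by each list within 10 kb of the TSS (Euclidean distance of log2 values over the 6 lists, each scaled to its SD). For CAV2 they were ZKSCAN2, RAVER1 and C3orf38, and for MET UBL3, UBE2K and UBE2Q1. For CAVIN1 they were CARD8, NUP153 and PDGFC, for CAVIN2 TBC1D12, SAV1 and STK17B, and for CAVIN3 SNU13, TARBP2 and MAP3K12. None of the 6 members was among them. The distance to the nearest gene was 0.173 for CAVIN2 (median over all genes 5.25) and 0.0511 to 0.0685 for the other 4 (medians 2 to 2.22).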

How the data were processed

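Peak lists of ChIP-seq in MDA-MB-231 cells were used as deposited, 1 for each antibody. The authors aligned unique reads to hg19 (the labels name Bowtie2, the study's methods BWA), made signal in bins of 50 bp, merged the replicates (2 libraries for each antibody, 1 for p300/CBP) and called regions by thresholding. The histone and p300/CBP signals had been scaled and background-subtracted, and that of Pol II scaled. Threshold, minimum run and maximum gap differed between lists (H3K4me1 30, 250 and 1000 bp; p300/CBP 60, 50 and 50 bp), so numbers and widths of peaks cannot be set against each other between lists. Nearby signal within the gap was joined into 1 peak.

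Peaks were intersected (at least 1 bp) with GENCODE v44 lifted to hg19, using the Ensembl canonical TSS of each protein-coding gene, in Python 3.11.15 with NumPy 2.4.6, SciPy 1.17.1 and pysam 0.24.0. Functions that intersect intervals were checked on simulated data. Sequences were read from the hg19 genome. Library depth is not held in the lists. The 6 members, the gene lists and the searched letters were chosen with earlier results of these data known. Named were the members, other genes with a TSS in the loci, ST7, the listed genes that lack H3K27ac with a few examples, the markers, and the 3 nearest patterns, leaving out genes with a TSS within 20 kb of the member; elements and sequences described singly, the examples from the lists and INSR were chosen after their values were seen. Some sequences and the patterns most like that of CAV1 are not reported here. Of the marker list, PECAM1 was not analysed here. The alternatives changed the window, the flank, the overlap and the peaks admitted.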

Additional observations from a re-analysis of the deposited data

How the results depend on the processing

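Of 220 alternative values over 76 results, 75 moved and 145 did not, where a count moved if it changed by more than 1.5 times and a share if it left its 95% interval. Smaller changes are among the 145, such as 4 members with H3K4me1 in place of 6 among wide peaks. A gene body holds no independent units, so for its coverage the rule is a convention only. H3K4me1 over CAV1, for example, counted as moved at 42.6% among wide peaks in place of 46.3%. A window of 1 kb lowered the members with H3K4me1 from 6 to 2, and asking for 500 bp of the window lowered those with CTCF from 1 to 0. With at least 50% of the H3K4me1 region in H3K27ac, the cAE counts were 17 on chromosome 7, 3 at CAVIN1, 2 at CAVIN2 and 0 at CAVIN3. Dropping every peak narrower than its list's median width, which stands in for a stricter threshold, gave 20 cAEs on chromosome 7, 2 at CAVIN2 and 1 at CAVIN3, and 45 H3K4me1, 25 H3K27ac, 7 H3K4me3, 11 p300/CBP and 16 Pol II peaks on chromosome 7, with Pol II over 15.7% of CAVIN1 and 0 of CAVIN2. A flank of 50 kb gave 4 cAEs at CAVIN1, 4 at CAVIN2 and 1 at CAVIN3. A flank of 200 kb gave 11 at CAVIN1, 11 at CAVIN2 and 20 CTCF peaks on chromosome 7. Canonical transcripts as gene bodies, an alternative chosen after seeing the data, gave 20 cAEs and 8 p300/CBP peaks on chromosome 7 and Pol II over 26.2% of CAV2. Stricter settings and shorter loci admit fewer peaks by construction, and no other cause was tested. No paired analysis was possible because each list was called on merged libraries, which also kept any single replicate from being left out. Widths depend on the joining gap, and an absent peak means only that the signal did not pass the threshold.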
